A study of Mus musculus with 84 samples.

Results

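The 8 genes described here encode the chains of the IL-4 and IL-13 receptors (Il4ra, Il2rg and Il13ra1), the Janus kinases bound to them (Jak1, Jak2, Jak3 and Tyk2) and the transcription factor they activate (Stat6). They were taken by name from a count table of 55471 genes, and each name matched 1 gene. The cells are MMC9s, mucosal mast cells that make IL-9, taken from the small intestine of food-allergic BALB/c mice. There were 3 bulk libraries, 1 per genotype: WT, IL4RaY709F (a gain-of-function receptor) and IL4Ra-/- (loss of function). For these, ovalbumin-sensitized WT mice received bone marrow progenitors of 1 genotype and then 7 oral ovalbumin challenges, 3 in a week. Each bulk RNA was a pool of 12 to 20 biological replicates. The sources used here do not give the gate of the bulk sort or how donor cells were told from those of the WT hosts. A separate set held 81 single MMC9s of WT mice made allergic with Ova/alum; their gate took c-Kit+ ST2+ cells that were Lin-, IL-17RB2-, β7-integrin low and IL-4GFP high. No animal is named for them, so they count as 1 sample.

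IL-4 binds IL-4Rα, which pairs with the common gamma chain (encoded by Il2rg) in the type I receptor and with IL-13Rα1 in the type II receptor. The type II receptor also binds IL-13. IL-4Rα carries JAK1, the common gamma chain carries JAK3, and IL-13Rα1 carries TYK2 or JAK2. The kinases phosphorylate tyrosines in the tail of IL-4Rα, where STAT6 docks, is itself phosphorylated and moves to the nucleus. A further tyrosine of the tail lies in an inhibitory motif that recruits phosphatases such as SHP-1, and this is the residue replaced in IL4RaY709F.

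The sequence around that residue is shown because it defines the gain-of-function library. Codon 709 of the 810 codons of Il4ra, counted from the start codon of GENCODE transcript Il4ra-201, is a tyrosine codon (TAC). It lies at GRCm38 chr7:125576746-125576748 on the plus strand, in exon 11 of 11. The coding sequence at chr7:125576716-125576778, with this codon in capitals, is that of the reference and not of these mice.
Il4ra codon 709: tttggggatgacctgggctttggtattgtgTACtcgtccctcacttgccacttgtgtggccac
Gene counts do not show the base change itself.

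The bulk libraries held 2299793 to 2521791 reads in genes, so that 3 reads corresponded to 1.18 to 1.31 CPM. CPM (counts per 1e6 gene reads) were taken after scaling by the trimmed mean of M-values (TMM). Of the 81 cells, 80 had 10000 gene reads or more and were kept (163596 to 2210211, median 1209300); the other had 1225. The 11 mast cell markers, such as Cpa3 and Mcpt1, all had reads in each bulk library, and a cell had a median of 11 of them at 10 reads or more (lowest 8). They summed to 61376, 87535 and 58078 CPM in WT, IL4RaY709F and IL4Ra-/-, which is 1.43-fold higher in IL4RaY709F than in WT (1.42 to 1.44) and 1.51-fold higher than in IL4Ra-/- (1.497 to 1.517). Cpa3 and Mcpt1 had the most reads of the list. By the rule given below, 1 of the 11 was called higher in IL4RaY709F against WT and 3 between the mutants. These counts stand beside 1.68% and 4.62% of all genes tested, and none of the 11 was called lower. Summed markers of most other cell types differed between the libraries. The 12 macrophage or monocyte markers, such as Lyz2 and Csf1r, summed to 158, 83.4 and 506 CPM in WT, IL4RaY709F and IL4Ra-/-, with none at 0 in any library. The 10 B or plasma cell markers, such as Igha and Igkc, summed to 6579, 3027 and 13389 CPM in the same order, with 1 at 0 in WT. The 8 dendritic cell markers, such as Cd74 and H2-Aa, summed to 255, 219 and 697 CPM, with 3, 1 and 2 at 0. Summed in the same order, 6 T cell markers gave 158, 198 and 276 CPM, 9 epithelial markers 24.9, 27.9 and 73.1 CPM, and 4 basophil markers 214, 413 and 192 CPM. The 7 ILC2 markers, led by Il7r and Il17rb, summed to 72.6, 107 and 47.98 CPM. Of these, 2 of the 2 measurable ones were called higher between the mutants, beside 4.62% of all genes tested. The mast cell, basophil and ILC2 sums were thus highest in IL4RaY709F, as Il4ra and Jak1 were. The 4 eosinophil markers summed to 44.6, 35.7 and 30.7 CPM and the 4 neutrophil markers to 3.50, 0.860 and 2.36 CPM. In each pair 1 eosinophil marker was measurable, and it was not called. Of the neutrophil markers, 0 were measurable in any pair, so none could be called. At least 1 basophil marker reached 10 reads in 44 of the 80 single cells. The same count was 41 for B or plasma cell markers and 32 for T cell markers. For ILC2, dendritic cell, macrophage or monocyte, epithelial, eosinophil and neutrophil markers it was 26, 24, 17, 10, 4 and 0. The part of these cell types in the results below was not tested.

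With 1 library per genotype there is no replicate check and no p-value. Intervals are exact 95% intervals that cover counting error only. A gene is called higher or lower when its larger library has at least 50 reads, the ratio is at least 2-fold and the interval excludes 1. In bulk RNA, fewer cells of a type and less RNA per cell cannot be told apart.

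Among the receptor chains, Il4ra was 2.23-fold higher in IL4RaY709F than in WT (2.05 to 2.43) and 2.56-fold lower in IL4Ra-/- (2.26 to 2.91), Il2rg was not called, and Il13ra1 had 13 reads or fewer in each library. Il4ra (ENSMUSG00000030748, GRCm38 chr7:125552120-125579474, plus strand) had 806 reads in WT, 1831 in IL4RaY709F and 350 in IL4Ra-/-, or 353, 787 and 138 CPM. It was called in all 3 pairs of libraries, ranking 63rd from the top of 5964 genes in IL4RaY709F against WT and 26th from the bottom of 6246 in IL4Ra-/- against WT. Between the mutants it was 5.72-fold higher in IL4RaY709F (5.10 to 6.43). The reads left in IL4Ra-/- could not be placed on the allele, since the sources used here do not give the deleted part.

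Il2rg (ENSMUSG00000031304, chrX:101264378-101268255, minus strand), whose product also serves the receptors for IL-2, IL-7, IL-9, IL-15 and IL-21, had 432 CPM in the WT library, 461 in IL4RaY709F and 313 in IL4Ra-/-. Its log2 ratio to WT was 0.09 in IL4RaY709F (-0.03 to 0.22) and -0.46 in IL4Ra-/- (-0.60 to -0.33), neither past 2-fold. The first of these is -0.01 when libraries are scaled by total reads. The ratio of Il4ra to Il2rg within a library does not depend on the scaling. Per kilobase of gene length it was 0.325 in WT (0.296 to 0.357), 0.679 in IL4RaY709F (0.630 to 0.733) and 0.175 in IL4Ra-/- (0.154 to 0.198). The 3 intervals do not overlap. Il2rg was thus the more abundant chain per length in every library, by the least in IL4RaY709F.

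Il13ra1 (ENSMUSG00000017057, chrX:36112110-36171259, plus strand), the chain that makes the type II receptor, had 1 read in WT, 1 in IL4RaY709F and 13 in IL4Ra-/-. These reads correspond to 0.438, 0.430 and 5.11 CPM, so that WT and IL4RaY709F lay under the level of 3 reads. The IL4Ra-/- to WT ratio was 11.7 with an interval of 1.75 to 497, on too few reads for a call. The library with the 13 reads was also the one where the macrophage or monocyte markers were highest, 3.20-fold above WT (2.84 to 3.60). Of these markers, 8 of the 8 measurable ones were called higher, beside 2.43% of all genes tested. The epithelial (2.93-fold above WT), dendritic cell (2.73-fold), B or plasma cell (2.04-fold) and T cell (1.75-fold) sums were highest there as well. Whether the Il13ra1 reads came from any of these cell types was not tested. In WT, Il13ra1 made up 0.0557% of the reads of the 3 chains (0.0014 to 0.310), Il4ra 44.9% and Il2rg 55.02%. Il13ra2, the decoy receptor for IL-13, had 0 reads in each library, with exact upper limits of 1.61, 1.59 and 1.45 CPM in WT, IL4RaY709F and IL4Ra-/-.

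Among the kinases, Jak1 was higher in IL4RaY709F, while Jak1 and Jak2 both lay lower in IL4Ra-/- without reaching 2-fold. Jak1 (ENSMUSG00000028530, chr4:101152367-101265282, minus strand), the partner of IL-4Rα, had 2433 reads in WT, 5503 in IL4RaY709F and 1804 in IL4Ra-/-, or 1065, 2366 and 709 CPM. It was 2.22-fold higher in IL4RaY709F than in WT (2.12 to 2.33), a log2 ratio of 1.15, next to Il4ra at rank 64 of 5964. In IL4Ra-/- its log2 ratio to WT was -0.59 (-0.67 to -0.50), and between the mutants it was 3.34-fold higher in IL4RaY709F (3.16 to 3.52).

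Jak2 (ENSMUSG00000024789, chr19:29251828-29313080, plus strand), which also serves the receptors for IL-3 and GM-CSF, reached 1097 CPM in the WT library, 1339 in IL4RaY709F and 660 in IL4Ra-/-. The log2 ratio to WT was 0.29 in IL4RaY709F (0.21 to 0.36) and -0.73 in IL4Ra-/- (-0.82 to -0.64). Jak2 was called between the mutants, 2.03-fold higher in IL4RaY709F (1.91 to 2.15), a call at the edge of the rule that is lost when libraries are scaled by total reads (log2 ratio 0.78). Jak3 (ENSMUSG00000031805, chr8:71676296-71690575, plus strand), the partner of the common gamma chain, was called in no pair, with 152, 196 and 119 CPM in WT, IL4RaY709F and IL4Ra-/-. Its log2 ratios to WT were 0.36 (0.16 to 0.57) and -0.35 (-0.58 to -0.13). Tyk2 (ENSMUSG00000032175, chr9:21104068-21131243, minus strand) was the member with the least spread, at 112, 104 and 101 CPM. Both of its intervals against WT span a log2 ratio of 0.

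**Figure D1:**
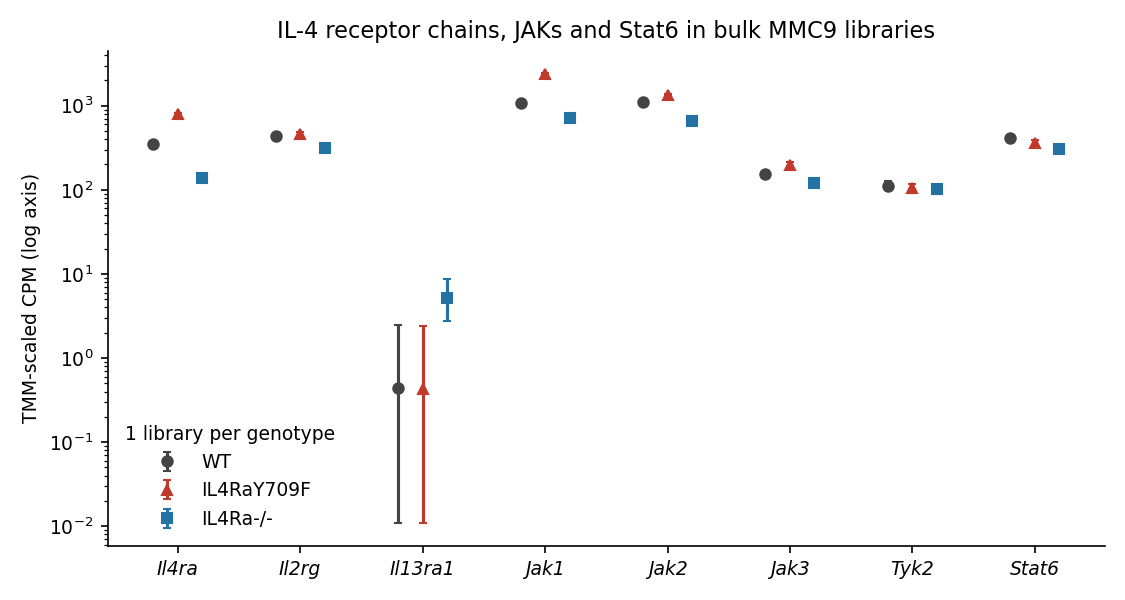
TMM-scaled CPM (log axis) of the 8 genes in the WT, IL4RaY709F and IL4Ra-/- bulk libraries, with bars for the 95% counting interval and 1 library per genotype. Il4ra spans 138 to 787 CPM and Jak1 709 to 2366 CPM, while Tyk2 stays between 101 and 112 CPM and Il13ra1 at or below 5.11 CPM.

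The make-up of the kinase pool differed in IL4RaY709F. Jak1 gave 43.9% of all JAK reads in WT (42.6 to 45.2), 59.1% in IL4RaY709F (58.1 to 60.1) and 44.6% in IL4Ra-/- (43.1 to 46.2). The WT and IL4Ra-/- intervals overlap, and the IL4RaY709F interval lies above both. Per gene length, Jak1 stood at 0.675 of Jak2 in WT (0.638 to 0.714), 0.748 in IL4Ra-/- (0.700 to 0.800) and 1.23 in IL4RaY709F (1.18 to 1.29). Jak2 was thus the leading JAK transcript per length in WT and IL4Ra-/-, and Jak1 in IL4RaY709F.

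Stat6 (ENSMUSG00000002147, chr10:127642986-127660957, plus strand), the factor downstream of the receptor, was highest in the WT library at 410 CPM, with 364 in IL4RaY709F and 308 in IL4Ra-/-. It lay below WT in both mutants, with a log2 ratio of -0.17 in IL4RaY709F (-0.31 to -0.04) and -0.41 in IL4Ra-/- (-0.55 to -0.28), neither past the rule. Between the mutants its log2 ratio was 0.24 (0.10 to 0.38), which falls to -0.0021 with total-read scaling. Its transcript level did not follow that of Il4ra upward in the gain-of-function library.

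Of the 7 members with enough reads, 2 were called higher in IL4RaY709F against WT (Il4ra and Jak1) and none lower, where 2.45% of all 5964 genes tested were called, 1.68% higher and 0.771% lower. The median log2 ratio of the 7 was 0.29, beside 0.02 over all genes tested. In IL4Ra-/- against WT, 1 of 7 was called lower (Il4ra) and none higher, beside 3.73% called over 6246 genes, 1.3% lower and 2.43% higher, and all 7 lay below 0 (median -0.46, beside -0.08 over all genes). Between the mutants 3 of 7 were called higher in IL4RaY709F (Il4ra, Jak1 and Jak2), beside 8.12% called of 6319 genes, 4.62% higher and 3.5% lower, and the 7 lay above 0 (median 0.72, beside 0.09). Il4ra is itself the gene altered in both mutants, so its calls and its place in these counts and medians are not separate from the genotype. Apart from Il4ra, no member was called in IL4Ra-/- against WT. The comparisons with WT share the WT library. Scaling by total reads shifts every log2 ratio by -0.11, 0.13 and -0.24 in the 3 comparisons, and then Tyk2 and Stat6 lie below 0 between the mutants.

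**Figure D2:**
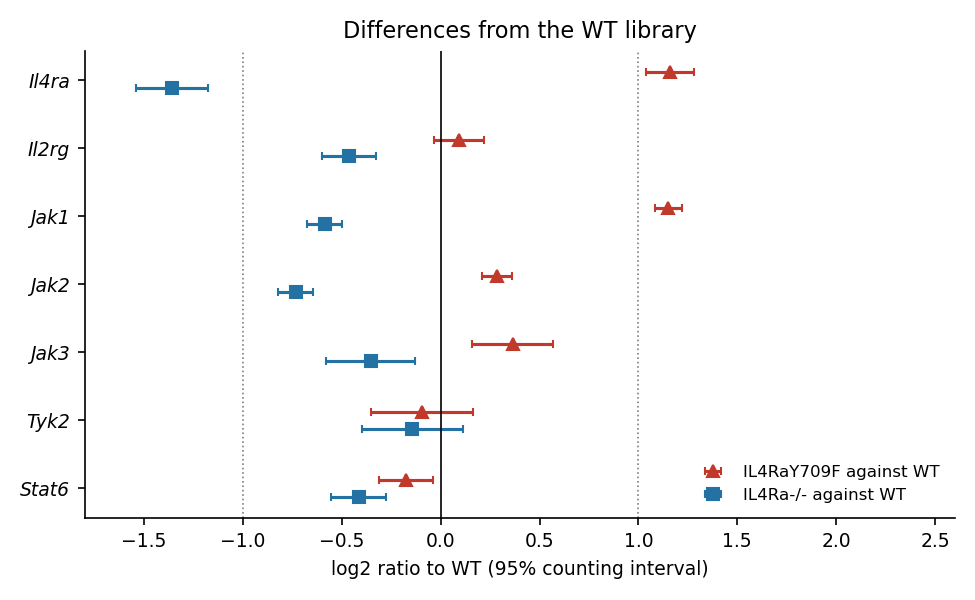
Log2 ratio of IL4RaY709F (triangles) and IL4Ra-/- (squares) to the WT library for 7 genes, with 95% counting intervals; dotted lines mark 2-fold and Il13ra1 is left out for its few reads. Il4ra lies past 2-fold on both sides (1.16 and -1.36), Jak1 on the higher side only (1.15), and Stat6 lies below 0 in both mutants.

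Some members share exon bases with other genes of the annotation, so reads there could not be assigned with certainty. Il2rg shares 30.5% of its exon bases with Gm20489, a gene of the same strand. Il4ra shares 9.51% with the antisense gene Gm44876, Tyk2 8.07% with the antisense gene 1700084C06Rik, and Jak3 7.55% with Insl3.

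Compared per gene length (RPKM, the CPM divided by the gene length in kilobases), Jak2 was the highest of the 8 in WT at 218 (210 to 227), followed by Il2rg at 181, Jak1 at 147, Stat6 at 93.2, Il4ra at 58.8, Jak3 at 28.5, Tyk2 at 16.3 and Il13ra1 at 0.118. No neighbours in this order had overlapping counting intervals. In IL4RaY709F the order was led by Jak1 at 327, and Il4ra at 131 passed Stat6 at 82.6. In IL4Ra-/- Il4ra fell to 22.9 (20.6 to 25.5), not separable from Jak3 at 22.3 (19.8 to 24.9), and Il2rg and Jak2, at 131.3 and 131.2, were not separable either.

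Because Il4ra and Jak1 were called together in IL4RaY709F, the 250 bases before their RefSeq start sites (GRCm38.p6) are shown, in the direction of each gene. The gene as counted starts further upstream, so that 151 bases of the Il4ra window, with all 3 of its marked matches, and 59 bases of the Jak1 window lie inside it. Capitals mark matches to ATGNAAAT on either strand, a motif chosen after the sequences were seen.
Il4ra, plus strand, chr7:125552021-125552270: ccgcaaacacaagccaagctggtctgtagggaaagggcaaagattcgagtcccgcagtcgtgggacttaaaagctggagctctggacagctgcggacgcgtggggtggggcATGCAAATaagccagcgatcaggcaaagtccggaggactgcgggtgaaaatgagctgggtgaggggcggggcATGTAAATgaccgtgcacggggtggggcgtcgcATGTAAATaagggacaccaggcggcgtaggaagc
Jak1, minus strand, chr4:101265224-101265473: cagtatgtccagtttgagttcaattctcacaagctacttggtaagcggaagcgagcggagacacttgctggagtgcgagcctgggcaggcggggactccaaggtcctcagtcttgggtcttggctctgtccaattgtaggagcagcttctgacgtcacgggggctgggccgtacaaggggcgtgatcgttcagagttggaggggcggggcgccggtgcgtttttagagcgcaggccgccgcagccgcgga
Promoters were found in RefSeq for all 8 genes. The STAT6-type motif TTCNNNNGAA was in none of the 8 windows of 300 bases and in 6.95% of all 32851 RefSeq promoters, and the general STAT motif TTCNNNGAA was in none of the 8 and in 8.30% of all. The 2 differ by 1 base of spacing, can share bases, and read the same on either strand. The motif ATGNAAAT was found in the Il4ra window alone of the 8, 3 times, and at least once in 5.67% of all promoters. A window with 3 or more of them was found for 15 promoters. A match or its lack describes these letters only.

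Beyond the 8 members, 53 further genes of the pathway were listed by role. Of 35 with enough reads in IL4RaY709F against WT, 7 were called higher and none lower (median log2 ratio 0.26), beside 1.68% higher and 0.771% lower over all genes (median 0.02). Of 36 in IL4Ra-/- against WT, 5 were called lower and 1 higher (median -0.45), beside 1.3% lower and 2.43% higher over all genes (median -0.08). Of 35 between the mutants, 12 were called higher in IL4RaY709F and 1 lower (median 0.57), beside 4.62% and 3.5% over all genes (median 0.09). The list was chosen with earlier results of these data known.

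The feedback inhibitors Socs1 and Socs3 were called higher in IL4RaY709F and lower in IL4Ra-/-, as Il4ra was. Socs1, which blocks JAK activity, had 37.6, 101 and 9.44 CPM in WT, IL4RaY709F and IL4Ra-/-, and Socs3 123, 279 and 33.4 CPM. Both were called in all 3 pairs, and between the mutants Socs1 was 10.7-fold and Socs3 8.34-fold higher in IL4RaY709F. Cish, another SOCS-family inhibitor, at 546, 862 and 297 CPM, was called between the mutants alone (log2 ratio 1.54), as was the phosphatase gene Ptpn1 (1.05), whose call is lost with total-read scaling. Ptpn6, Ptpn11 and Inpp5d, the genes of the phosphatases SHP-1, SHP-2 and SHIP-1 that bind inhibitory motifs, were not called in any pair. In IL4RaY709F their log2 ratios to WT were -0.25, 0.22 and -0.34. In all, 2 of 10 regulators were called higher in IL4RaY709F and 2 of 10 lower in IL4Ra-/-, beside 1.68% and 1.3% of all genes.

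Of 7 adaptors and kinases none was called against WT, beside 2.45% of all genes in IL4RaY709F and 3.73% in IL4Ra-/-. Pik3cd, a PI3 kinase subunit of leukocytes, was the 1 called between the mutants (log2 ratio 1.28), beside 4.62% of all genes called higher. Irs2, an adaptor that docks on IL-4Rα, had log2 ratios of -0.08 and -0.65 to WT, and Grb2 0.06 and -0.38. None of the 6 other STATs was called against WT, beside the same shares of all genes. All 6 lay above 0 in IL4RaY709F and below 0 in IL4Ra-/-. Over all genes tested, 3150 of 5964 lay above 0 in IL4RaY709F and 3626 of 6246 below 0 in IL4Ra-/-. Stat5a, which signals for IL-2-family and IL-3-family cytokines, was the 1 of 6 called between the mutants, beside 4.62% of all genes called higher. Its log2 ratio was 1.46, from 437 CPM in IL4RaY709F against 159 CPM in IL4Ra-/-. Stat3 had log2 ratios of 0.38 and -0.42 to WT.

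Of 5 other receptor chains and ligands with enough reads, 2 were called higher in IL4RaY709F, Il2ra and Il13, beside 1.68% of all genes. Il2ra, the alpha chain of the IL-2 receptor, had 35.4, 107 and 14.9 CPM in WT, IL4RaY709F and IL4Ra-/-, and was called in all 3 pairs. Il13, a ligand of the type II receptor, stood at 289, 629 and 337 CPM, and was called in IL4RaY709F against WT alone. Il7r was called between the mutants (log2 ratio 1.14), a call lost with total-read scaling. Il7r had 10 reads or more in 19 of the 80 single WT cells. It is also among the ILC2 markers given above, and the part of such cells was not tested. Il9r, the receptor chain for IL-9, was not called and had log2 ratios to WT of -0.57 in IL4RaY709F and -0.78 in IL4Ra-/-, a value chosen for mention after it was seen.

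Among STAT6 co-factors and targets, Batf and Nfil3 were called in all 3 pairs and Irf4 in IL4RaY709F against each of the others. Batf stood at 151, 456 and 51.5 CPM, Nfil3 at 84.9, 199 and 20.4 CPM, and Irf4 at 94.1, 369 and 65.7 CPM in WT, IL4RaY709F and IL4Ra-/-. Tgm2, a transglutaminase, was called between the mutants (log2 ratio 1.28). Mrc1, a macrophage mannose receptor, was called the other way in IL4Ra-/- against WT and between the mutants, with 10.1, 9.46 and 38.9 CPM. It was detected in 0 of the 80 cells. In the same IL4Ra-/- library the macrophage or monocyte markers, a list that includes Mrc1 itself, were 3.20-fold above WT. The epithelial markers were 2.93-fold and the dendritic cell markers 2.73-fold above WT. The part of such cells in the Mrc1 value was not tested. Of the 19 listed, 7 had enough reads in IL4RaY709F against WT. Of these, 3 were called higher and 0 lower, beside 1.68% and 0.771% of all genes. The 3 below 0 were Crebbp, Ep300 and Bcl6 (log2 ratios -0.54, -0.40 and -0.27), not called and named after their values were seen. In IL4Ra-/- against WT, 2 of 8 were called lower and 1 higher, beside 1.3% and 2.43%. Between the mutants, 4 of 7 were called higher in IL4RaY709F and 1 lower, beside 4.62% and 3.5%.

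**Figure D3:**
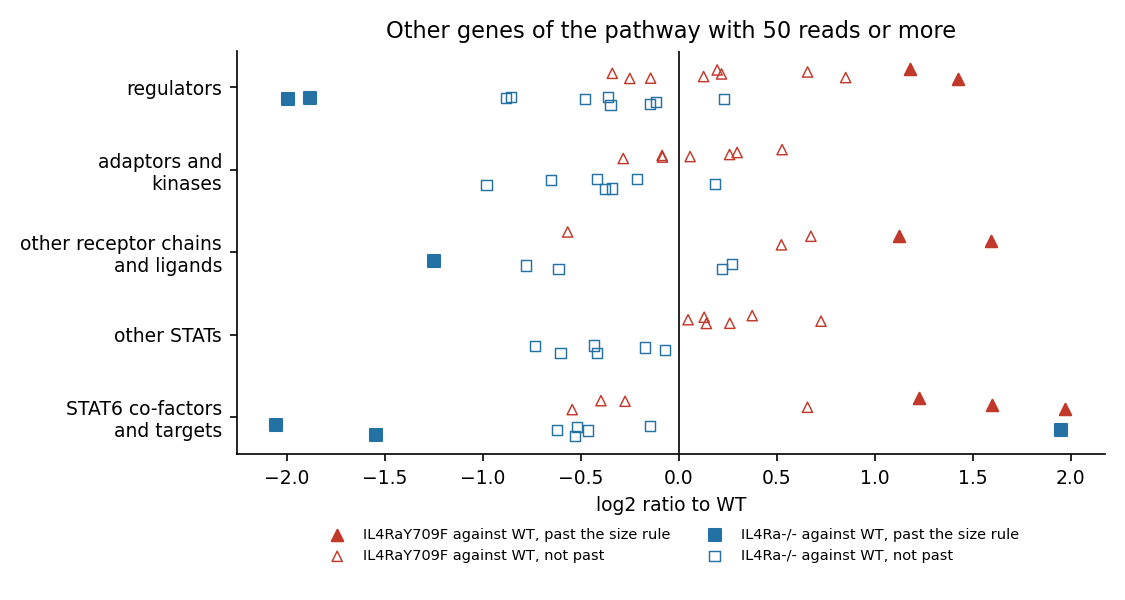
Log2 ratio to WT of the pathway genes with 50 reads or more, by role, in IL4RaY709F (triangles) and IL4Ra-/- (squares); filled symbols passed the size rule. Filled triangles lie on the right and filled squares on the left, apart from Mrc1 at 1.95 in IL4Ra-/-.

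In the single WT cells, Il2rg and Jak1 were read in most cells, Il4ra, Jak2, Stat6 and Tyk2 in part of them, Jak3 in few and Il13ra1 in none. Detection here means at least 10 reads in the cell. Il2rg was detected in 69 of 80 cells (86.25%, 76.7 to 92.9), with 0.754 CPM in the lowest cell, a median of 631 and 2858 in the highest. Jak1 was detected in 70 of 80 (87.5%, 78.2 to 93.8), from 1.34 to 5306 CPM with a median of 489. Each had at least 1 read in all 80 cells. The cells without 10 reads of Il2rg were shallower (median 292752 gene reads) than those with them (1236980).

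Il4ra was detected in 31 of 80 cells (38.75%, 28.1 to 50.3), with a median over all cells of 1.79 CPM and 1859 in the highest cell. Its reads were split into a low and a high range: 29 cells had 0 reads, 20 had 1 to 9, 6 had 10 to 99 and 25 had 100 or more. In the 31 cells the median was 247 CPM. Stat6 was split likewise, detected in 44 cells (55%, 43.5 to 66.2), with 15 cells at 0 reads and 37 at 100 or more, a median of 38.7 CPM and 2353 CPM in the highest.

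Jak2 was detected in 32 cells (40%, 29.2 to 51.6), with a median of 4.92 CPM and 2113 in the highest. Tyk2 was detected in 23 (28.75%, 19.2 to 39.95), up to 299 CPM. Jak3 was detected in 13 (16.25%, 8.95 to 26.2), up to 1452 CPM, and 61 cells had 0 reads. Thinning each cell to 150000 reads lowered the shares to 23.75% for Jak2 and 6.25% for Jak3, so these shares depend on depth. Cell 73 held 54.6% of all Jak3 reads, and without it the level over the summed cells fell from 31.7 to 14.5 CPM. Cell 38 held 34.6% of the Jak2 reads, and the level fell from 115 to 76.7 CPM without it. Il13ra1 had 1 read in 1 cell and reached 10 reads in 0 of 80. By counting error alone this allows up to 4.51% of cells with 10 reads, which sets no limit on cells whose transcripts were missed.

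**Figure D4:**
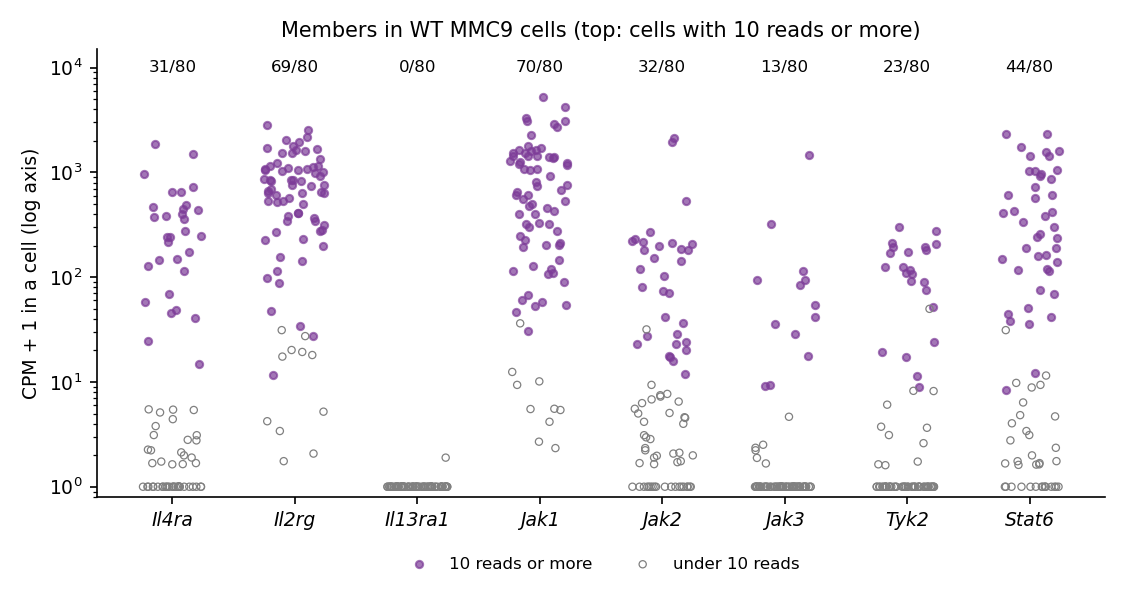
CPM + 1 (log axis) of each gene in each of the 80 WT cells; filled points have 10 reads or more, open points fewer, and the numbers on top count the filled points. Il2rg and Jak1 are filled in 69 and 70 cells, Il4ra in 31 and Il13ra1 in none.

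Both chains of the type I receptor were detected together in 29 cells (36.25%, 25.8 to 47.8), that is in 29 of the 31 cells with Il4ra. Both chains of the type II receptor were detected in 0 of 80. Adding Jak1 left 27 cells and adding Stat6 left 22 (27.5%, 18.1 to 38.6). With Jak3 as well, 6 cells remained (7.5%, 2.80 to 15.6), and none after thinning to 150000 reads. Il4ra was the chain that limited most sets: Il2rg, Jak1 and Stat6 were detected together in 39 cells. Stat6 was detected in 23 of the 31 cells with Il4ra (74.2%, 55.4 to 88.1) and in 21 of the 49 without (42.9%, 28.8 to 57.8). The other 5 detected members also had higher shares in the cells with Il4ra, with 93.5% and 81.6% for Il2rg, 93.5% and 83.7% for Jak1, 48.4% and 34.7% for Jak2, 19.4% and 14.3% for Jak3, and 32.3% and 26.5% for Tyk2. Median depths were 1325520 reads with Il4ra and 1116390 without, all cells come from 1 sample, and the part of depth was not tested.

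**Figure D5:**
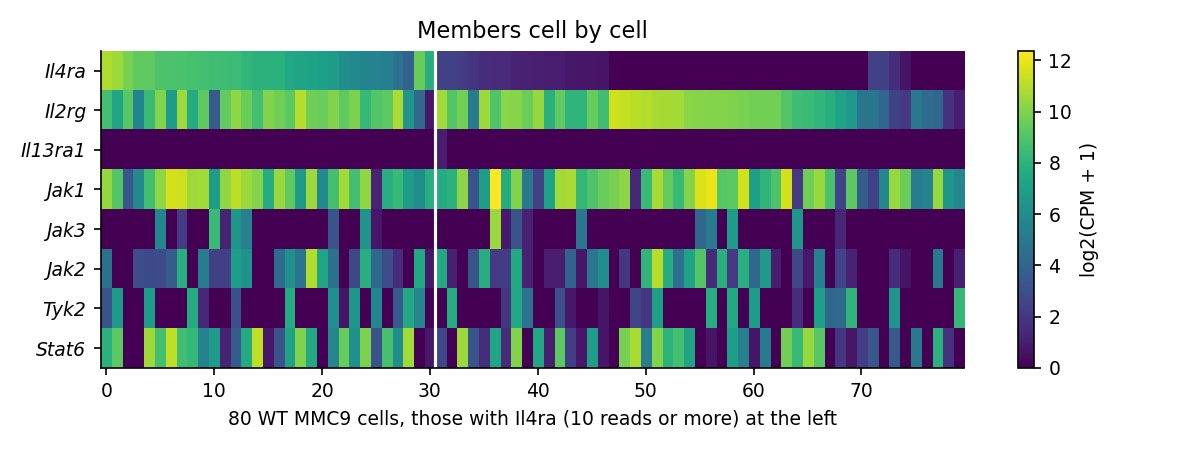
Log2(CPM + 1) of the 8 genes (rows) in the 80 WT cells (columns), with the 31 cells where Il4ra had 10 reads or more left of the white line. Il2rg and Jak1 fill most columns on both sides, and the Il13ra1 row is empty but for 1 read in 1 cell. Jak3 has at least 1 read in 19 columns and 10 reads or more in 13.

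The number of the 8 genes detected in a cell ranged from 0 (2 cells) to 7 (1 cell), and 20 cells had 3. Cells with few of them were shallower: median gene reads were 212820 with none, 1114510 with 3 and 1525000 with 6. At least 1 JAK was detected in 73 cells, and per gene length Jak1 was the highest JAK in 60 of these, Jak2 in 7, Tyk2 in 4 and Jak3 in 2. Over the 80 cells, which share 1 sample and differ in depth, the Spearman rho of log2(CPM + 1) between 2 members ranged from -0.11 (Il4ra with Il2rg) to 0.39 (Il2rg with Jak2) among the 21 pairs without Il13ra1, with a median of 0.09. Near the upper end, rho was 0.33 for Jak1 with Stat6 and 0.31 for Jak1 with Jak2. No baseline over other gene pairs was taken, so these values are not called low or high. Il2rg and Jak1 had reads in all 80 cells, while Jak3 was at 0 in 61 cells and Tyk2 in 46.

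The genes most like Il4ra over the cells, of 3626 genes with 10 reads or more in at least 20 cells, were Csk, a kinase that inhibits SRC-family kinases (rho 0.49), Smim3 (0.41) and Itm2c (0.41). Those most like Il2rg were Tax1bp1 (0.64), Pla2g7 (0.60) and Ywhaz (0.60). For Jak1 they were Cd84, Lgals3bp and Zeb2 (0.48 to 0.52), for Jak2 Aplp2, Luc7l2 and Hnrnpc (0.46 to 0.47), for Tyk2 Sharpin, Sin3b and Lsm6 (0.41 to 0.47), and for Stat6 Gm20689, Ecm1 and Nr3c1 (0.43 to 0.45). Jak3 and Il13ra1 were detected in too few cells. Over the 3 bulk libraries, the genes of 2624 with 200 reads or more whose 2 ratios to WT lay nearest to those of Il4ra were Dusp4, a MAP kinase phosphatase (log2 ratios 0.97 and -1.37), Rnf180 (1.05 and -1.20) and Mt1, a metallothionein (1.38 and -1.15).

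Summed over the cells, the order per gene length was Il2rg at 332 RPKM, Jak1 at 132, Stat6 at 79.7, Il4ra at 24.05, Jak2 at 22.9, Tyk2 at 6.83, Jak3 at 5.92 and Il13ra1 at 0.0029. The counting intervals of neighbours did not overlap, but they leave out the spread between cells. Against the WT bulk library, scaled by total reads, Jak1 had 956 CPM in the cells and 1058 in bulk, and Stat6 351 and 408, differences in log2(CPM + 1) of -0.15 and -0.22. Jak2 stood at 115 CPM in the cells and 1091 CPM in bulk, a difference in log2(CPM + 1) of -3.23 that ranked 355th from the bottom of 13099 genes. Over these genes the median difference was 0.31 with a robust SD of 1.43. The differences of Jak3, Il4ra and Tyk2 were -2.22, -1.27 and -1.22, and that of Il2rg was 0.88. Il4ra itself had 144 CPM in the cells and 350 CPM in bulk. Jak1 gave 83.2% of JAK reads in the cells (82.9 to 83.4), beside 43.9% in WT bulk. The cells and the bulk library came from different mouse models and each is 1 sample, so the model and the library type cannot be told apart.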

How the data were processed

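RNA of sorted MMC9s was measured in 3 bulk libraries, 1 per genotype, and 81 single WT cells. Raw counts of reads and gene lengths were deposited by the authors. HISAT and the featureCounts program of Subread 2.0.0 are named in the submitters' processing notes. The sources used here do not give the strand setting or the rule for reads that map to several places. The notes name GRCm38 and mm9 without roles; the ID, chromosome, start, end and strand of all 8 genes equal those of GENCODE M21 (GRCm38).

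From the counts, TMM factors (edgeR 4.0.16) gave scaled CPM, and each pair of libraries was compared over all genes by the log2 ratio with an exact conditional binomial (Clopper-Pearson) interval, which was tested on simulated data. RPKM divide by the deposited gene length. Levels and summed counts have exact Poisson intervals, shares exact Clopper-Pearson intervals. Reads are not independent molecules. Cells with at least 10000 gene reads were kept; no doublet caller was run on the singly sorted cells. Named pathway genes are those past the size rule in 1 pair or more and the 6 others with most reads; likeness names the 3 nearest genes, and each marker list of the text the 2 with most reads. Motifs were counted in RefSeq promoters of 300 bases (GRCm38.p6). Alternatives were total-read and DESeq2 1.42.0 scaling, read and fold minimums, detection limits, thinning and left-out cells. The members and lists were chosen with earlier results of these data known.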

Additional observations from a re-analysis of the deposited data

How the results depend on the processing

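The calls of Il4ra and Jak1 held under scaling by total reads and by DESeq2 size factors and with a read minimum of 20. In IL4Ra-/- against WT, the 1 member called became 2 with no read minimum (Il13ra1 added) and 3 with a fold minimum of 1.5 (Jak1 and Jak2 added). Jak1 lay at the edge of that limit, 1.501-fold lower (1.41 to 1.60). Its log2 ratio moved from -0.59 to -0.45 with total-read scaling. Between the mutants total-read scaling dropped Jak2, and of 13 pathway genes called it dropped Ptpn1 and Il7r. Detection at 1 read raised the shares of cells to 63.75% for Il4ra, 100% for Il2rg and Jak1, 76.25% for Jak2, 42.5% for Tyk2 and 81.25% for Stat6, with both type I chains in 51 cells and both type II chains in 1. Il2rg reached 93.75% at 10 CPM and 95.7% in cells with 500000 gene reads or more, and thinning gave 23.75% for Jak2 and 6.25% for Jak3. With the mean of the CPM of the cells in place of the summed reads, levels were 149.5 CPM for Il4ra, 723 for Il2rg, 872 for Jak1, 97.9 for Jak2, 29.4 for Jak3, 36.8 for Tyk2 and 321 for Stat6. Without the cell with most reads of each gene they were 118 for Il4ra, 759.7 for Il2rg, 0 for Il13ra1, 899 for Jak1, 76.7 for Jak2, 14.5 for Jak3, 41.7 for Tyk2 and 321 for Stat6. No paired analysis was possible because each genotype has 1 library. With 1 library per genotype, differences between animals or pools could not be measured, and depth limits Il13ra1 in bulk and Jak3 in cells.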

Other observations

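In the single WT cells the inhibitors of the pathway differed in how widely they were read. Cish and Inpp5d were each detected at 10 reads or more in 67 of 80 cells, more cells than Il4ra (31) or Stat6 (44). Ptpn6 was detected in 49 cells, Ptpn1 in 41 and Ptpn11 in 28. Socs3 was detected in 8 cells and Socs1 in 3, although both had reads in every bulk library. Stat3 was detected in 61 cells, above Stat6, and Stat5a in 30. Among the factors, Batf was detected in 51 cells, Nfil3 in 16 and Irf4 in 10. Il13 was detected in 12 cells and Il2ra in 5. Irs2 was detected in 27 cells and Grb2 in 50. These are counts of cells from 1 sample and were not tested against each other.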
